A study of Mus musculus with 8 samples.

Results

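The genes of retinoic acid supply and reception in the mouse testis were followed from d12 after birth to adulthood. The group held 10 genes chosen by name, Stra6, Crabp1, Rdh10, Aldh1a1, Aldh1a2, Aldh1a3, Cyp26a1, Cyp26b1, Rara and Rarg, and all 10 were found among the 23983 genes of the expression table. The rule itself used no measured value, but earlier results of these data were known. Total RNA of testis pieces was sequenced at d12, d16, d24 and in adult males of the inbred strain C57BL/6J, without transgene or treatment. Each stage had 1 library. The sources used here do not give the exact age of the adults or the number of males behind each library. The study used these stages to find genes switched on after meiosis, and its ChIP-seq samples for H3K27Ac were not analysed here.

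Retinoic acid is made inside tissues from vitamin A. Retinol is oxidised reversibly to retinal, mainly by the dehydrogenase RDH10, and retinal is oxidised irreversibly to retinoic acid by the 3 ALDH1A enzymes, while the CYP26 enzymes break retinoic acid down. In the nucleus it binds RAR receptors, which sit on DNA as heterodimers with RXR, usually at direct repeats of a short hexamer. In the testis it drives the differentiation of spermatogonia and the entry of germ cells into meiosis, and Sertoli cells, the somatic cells that nurse the germ cells, are known as a source early in life.

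Promoter sequences bear on the breakdown genes, because Cyp26a1 is a textbook target of its own substrate. The 250 bases before the annotated starts were searched for direct repeats of the hexamer AGGTCA or its variants, that is AGTTCA together with GGGTCA, besides also GGTTCA, on both strands, with 1, 2 or 5 bases between them. Among 16 promoters of 8 of the 10 genes in the RefSeq table of GRCm38.p6, 1 held such a repeat, that of Cyp26a1. It reads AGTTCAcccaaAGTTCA on the minus strand, spacing 5, and lies 32 to 16 bases before the start of the curated transcript. A predicted transcript of the gene starts farther upstream and its first exon spans the repeat. A repeat of spacing 5 was found in 29 of 32851 promoters of the table (0.0883%), one of any of the 3 spacings in 140 (0.426%), and at least 1 such hexamer in 38.6%. The repeat is a match of letters and was not tested as a binding site. The promoters of Cyp26a1, at chr19:37697558-37697807 on the plus strand, and of its paralog Cyp26b1, at chr6:84593811-84594060 on the minus strand, are shown for this contrast, read 5′ to 3′ with the hexamers of the repeat in capitals, here on the strand opposite to the one just quoted.
Cyp26a1: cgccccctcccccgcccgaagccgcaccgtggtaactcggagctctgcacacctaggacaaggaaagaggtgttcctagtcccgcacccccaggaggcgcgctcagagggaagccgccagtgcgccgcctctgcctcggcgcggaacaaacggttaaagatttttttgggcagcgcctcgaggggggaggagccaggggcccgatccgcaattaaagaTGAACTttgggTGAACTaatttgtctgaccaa
Cyp26b1: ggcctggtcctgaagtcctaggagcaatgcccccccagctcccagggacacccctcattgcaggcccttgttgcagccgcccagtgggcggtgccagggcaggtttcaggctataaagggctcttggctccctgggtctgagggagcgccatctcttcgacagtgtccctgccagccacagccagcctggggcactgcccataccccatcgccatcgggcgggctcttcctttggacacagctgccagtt

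The promoters of Aldh1a1 and Aldh1a2 are shown because the levels of these enzymes moved in opposite directions on the deposited scale, though both were lower in the adult with the same FPKM sum and both higher per Sertoli marker, as described with the rescalings. For Aldh1a1 the downstream one of its 2 annotated starts is given, chr19:20601718-20601967, and for Aldh1a2 its annotated start, chr9:71215539-71215788, both on the plus strand. Neither held a repeat, so no letters are in capitals.
Aldh1a1: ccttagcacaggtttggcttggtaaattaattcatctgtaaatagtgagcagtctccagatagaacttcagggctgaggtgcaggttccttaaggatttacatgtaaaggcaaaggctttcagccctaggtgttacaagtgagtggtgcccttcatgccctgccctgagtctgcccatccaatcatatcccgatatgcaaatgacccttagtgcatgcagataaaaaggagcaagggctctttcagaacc
Aldh1a2: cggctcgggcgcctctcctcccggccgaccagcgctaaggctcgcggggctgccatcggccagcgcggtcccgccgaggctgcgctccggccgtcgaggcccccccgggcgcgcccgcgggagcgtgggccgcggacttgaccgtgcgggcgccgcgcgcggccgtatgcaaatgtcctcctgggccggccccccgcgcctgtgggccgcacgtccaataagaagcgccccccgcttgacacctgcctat

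They differed in base composition. The Aldh1a1 stretch held 46.4% G and C with 1 CG dinucleotide, and the Aldh1a2 stretch 77.6% with 40, against medians of 52.4% and 6 over the 32851 promoters. By G and C share the Aldh1a2 promoter lay at percentile 97.6 of all promoters and that of Aldh1a1 at 28.4.

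Levels are given in FPKM as the authors deposited them, by name fragments per kilobase of transcript relative to the mapped fragments. How the libraries were scaled to each other is not given in the sources used here. Low values were whole multiples of what 1 fragment was worth, within 0.05 of a whole number for 91.8% to 92.4% of the values up to 20 fragments among genes with 1 transcript. This recovered 1 fragment on 1 kb as 0.0799 FPKM at d12, then 0.0800 at d16, 0.0455 at d24 and 0.112 in the adult, and put 4578564, 4820672, 11871951 and 6042246 fragments on these 14603 genes, so the d24 library was the deepest and the d12 one the shallowest. Intervals in parentheses are exact 95% intervals from these fragments. They cover counting error only, not the spread between males, and with 1 library per stage no difference was tested. For Stra6, Crabp1, Aldh1a1, Cyp26b1, Rara and Rarg, which have several curated transcripts, the fragments were counted on the shortest one, which gives the fewest fragments and the widest interval. The adult library held more of these fragments than that of d12, yet 1 fragment was worth more FPKM in it. The deposited levels were therefore not scaled to these fragments alone. The sum of all FPKM values rose from 283580 at d12 to 659202 in the adult, so FPKM levels are not on a fixed common scale. The libraries carried their stages: the 6 markers of pachytene spermatocytes summed to 66.1 FPKM at d12, then 863.6 at d16, 3666 at d24 and 4400 in the adult, and the 6 of round spermatids to 3.35, 23.5, 981.6 and 2726. The 6 markers of elongating spermatids summed to 13.1 FPKM at d12 and 4.42 at d16, before the first wave of spermatogenesis reaches them, and to 2424 and 26742 later.

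On the deposited scale, 9 of the 10 genes were lower in the adult than at d12 and Aldh1a2 was higher, directions that other scalings turned for Aldh1a2, Rdh10, Aldh1a1, Aldh1a3, Cyp26a1 and Rara, as given further on. In bulk testis, fewer cells of a type and less RNA per cell cannot be told apart, and the growing number of germ cells lowers the share of somatic RNA in the same way. The plot of levels by stage covers all 10.

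**Figure D1:**
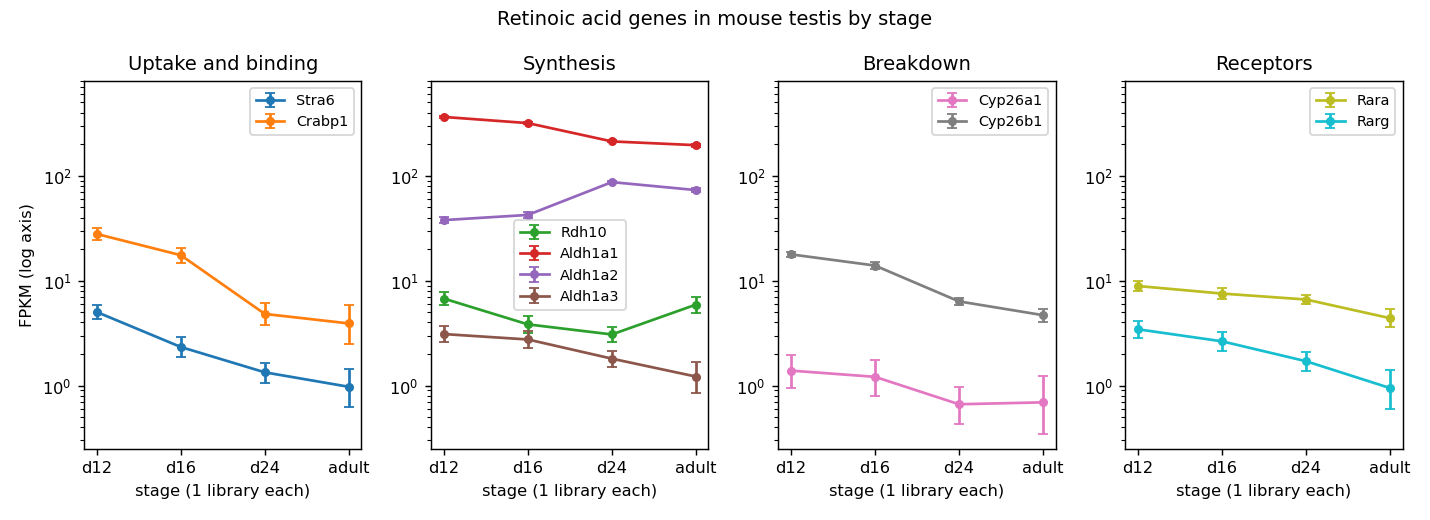
FPKM (log axis) of the 10 genes by stage, from d12 to adult testis with 1 library each, in panels by role. Points are deposited values, bars are exact 95% counting intervals, and lines join the stages of 1 gene. Aldh1a1 stays highest at every stage, from 363.7 to 195.8 FPKM, and Aldh1a2 is the gene that is higher in the adult than at d12.

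Stra6 encodes the membrane receptor that takes up retinol from its carrier in blood. Its level was 5.03 FPKM at d12 (4.30 to 5.83), then 2.33 at d16 (1.86 to 2.91), 1.34 at d24 (1.06 to 1.66) and 0.975 in the adult (0.623 to 1.45). Each later value was lower, with overlapping intervals only at d24 and in the adult. It was lower 2.15-fold already from d12 to d16 (1.64 to 2.83) and 5.16-fold from d12 to the adult (3.36 to 8.28). On chromosome 9, at 58063793 to 58154004 of GRCm38, it lies on the plus strand. No stretch of 50 bases of its longest coding transcript occurs in another gene.

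Crabp1 encodes a cytoplasmic protein that binds retinoic acid and is known from spermatogonia. It stood at 27.9 FPKM at d12 (24.5 to 31.6), then 17.5 at d16 (14.8 to 20.5), 4.82 at d24 (3.79 to 6.07) and 3.92 in the adult (2.51 to 5.82). The d12 level was 7.12 times the adult one (4.67 to 11.3), the largest ratio among the 10 genes in these libraries. The largest step lay between d16 and d24, where the level was 3.63 times lower (2.71 to 4.85), while the intervals at d24 and in the adult overlapped. Crabp1 ranked 2131 of 23983 genes at d12 and 10023 in the adult. The gene lies on chromosome 9 at 54764748 to 54773110, on the plus strand.

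Rdh10 carries out the first step, retinol to retinal. Its levels were 6.75 FPKM at d12 (5.84 to 7.77), then 3.83 at d16 (3.15 to 4.62), 3.07 at d24 (2.61 to 3.60) and 5.91 in the adult (4.91 to 7.07). On the deposited scale it was lowest at d24 and 1.92 times higher in the adult than at d24 (1.504 to 2.46), just short of 2-fold. Per Sertoli marker its lowest value was at d16 instead, with a log2 change of 0.23 from d16 to d24. The d12 and adult values overlapped, with a ratio of d12 to adult of 1.14 (0.905 to 1.44). Divided by Crabp1 in the same library, Rdh10 went from 0.242 at d12 (0.200 to 0.294) and 0.219 at d16 (0.170 to 0.283) to 0.637 at d24 (0.479 to 0.853) and 1.51 in the adult (0.969 to 2.45). Rdh10 lies on chromosome 1 at 16105882 to 16132550, on the plus strand.

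Aldh1a1, a retinaldehyde dehydrogenase known from Sertoli cells, was the most abundant of the 10 at every stage. It stood at 363.7 FPKM at d12 (356.4 to 371.2), then 317.7 at d16 (310.8 to 324.7), 212.6 at d24 (208.4 to 216.9) and 195.8 in the adult (189.4 to 202.3). All 4 intervals were separate, and the d12 level was 1.86 times the adult one (1.79 to 1.93). By rank, which no scaling between libraries can change, it was 69 of 23983 genes at d12, then 99 at d16, 347 at d24 and 629 in the adult. A share of its sequence is not its own: 151 of its 2309 stretches of 50 bases (6.54%) also occur in Aldh1a7, a neighbouring paralog with 13.2 FPKM at d12, then 13.6 at d16, 11.2 at d24 and 10.6 in the adult. Aldh1a1 spans 20492583 to 20643463 of chromosome 19, on the plus strand.

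Aldh1a2, the isoform known from germ cells, moved the other way on the deposited scale. Its levels were 37.8 FPKM at d12 (35.6 to 40.2), then 42.4 at d16 (40.0 to 44.8), 87.1 at d24 (84.5 to 89.7) and 73.1 in the adult (69.4 to 76.9). The step lay between d16 and d24, where it was 2.05 times higher (1.93 to 2.19), and the adult level was 1.93 times that at d12 (1.78 to 2.09). This increase depended on the scale: with every library set to the same FPKM sum, the log2 change from d12 to adult was -0.27 in place of 0.95, and with the same upper quartile it was 0.29. Among all genes, Aldh1a2 ranked 1466 at d12, then 1472 at d16, 1148 at d24 and 1860 in the adult. It lies at 71215789 to 71296243 of chromosome 9, on the plus strand, and shares no stretch of 50 bases with another gene.

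Aldh1a3, the third enzyme of the family, was scarce throughout. It stood at 3.10 FPKM at d12 (2.59 to 3.68), then 2.75 at d16 (2.28 to 3.30), 1.81 at d24 (1.52 to 2.14) and 1.22 in the adult (0.859 to 1.68). The d12 level was 2.54 times the adult one (1.75 to 3.76), and neighbouring stages overlapped except d16 and d24. It lies on chromosome 7 at 66390892 to 66427477, on the minus strand.

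Within 1 library, the ratio of 2 genes does not depend on how the libraries were scaled, and these ratios were chosen after the values had been seen. Aldh1a2 amounted to 0.104 of Aldh1a1 at d12 (0.0975 to 0.111), then 0.133 at d16 (0.125 to 0.142), 0.409 at d24 (0.395 to 0.424) and 0.373 in the adult (0.351 to 0.397). As a share of the summed FPKM of the 3 enzymes, Aldh1a2 made up 9.34% at d12, then 11.7% at d16, 28.9% at d24 and 27.1% in the adult. The balance between these enzymes therefore moved towards Aldh1a2 between d16 and d24 and not further by adulthood. Aldh1a3 stayed at 0.00852, 0.00866 and 0.00850 of Aldh1a1 at d12, d16 and d24, and at 0.00623 in the adult (0.00438 to 0.00861), with all 4 intervals overlapping.

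**Figure D2:**
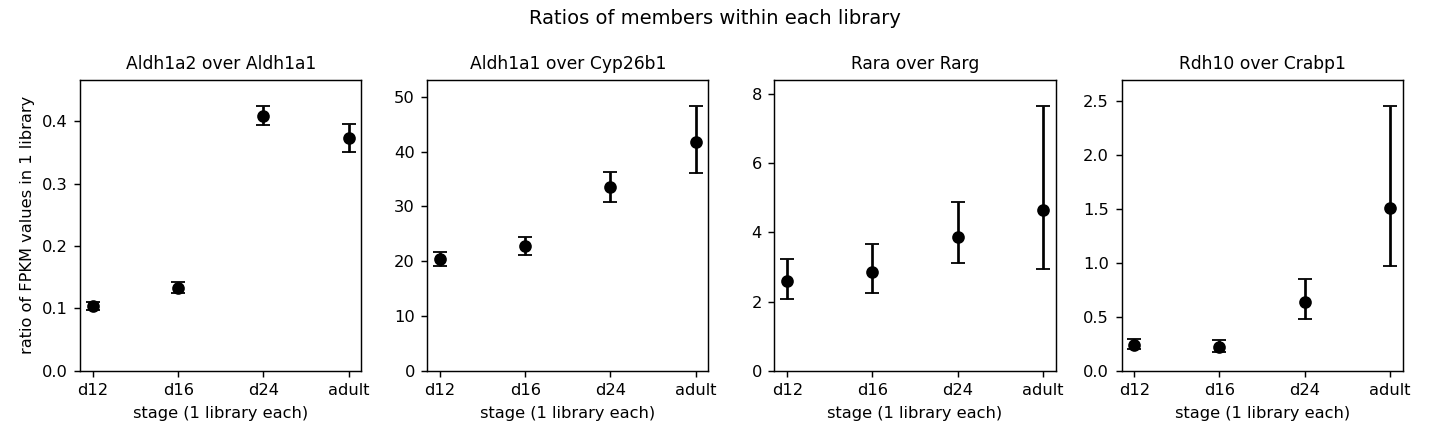
Ratios of FPKM values of 2 genes within each library, for Aldh1a2 over Aldh1a1, Aldh1a1 over Cyp26b1, Rara over Rarg and Rdh10 over Crabp1, each on its own linear axis from 0, with 1 library per stage. Bars are exact 95% counting intervals. Aldh1a2 over Aldh1a1 steps from 0.133 at d16 to 0.409 at d24.

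Cyp26b1, one of the enzymes that degrade retinoic acid and known to protect fetal male germ cells from it, was the main CYP26 gene at every stage. It stood at 17.8 FPKM at d12 (16.8 to 18.9), then 13.9 at d16 (13.0 to 14.9), 6.35 at d24 (5.88 to 6.86) and 4.69 in the adult (4.07 to 5.41). The 4 intervals were separate, and the d12 level was 3.80 times the adult one (3.25 to 4.44). The largest step was again d16 to d24, at 2.196-fold lower (1.98 to 2.44). Cyp26b1 lies on chromosome 6 at 84571414 to 84593908, on the minus strand.

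Cyp26a1, the paralog whose promoter holds the repeat shown above, had the lowest level of the 10 genes at every stage. It had 1.39 FPKM at d12 (0.945 to 1.97), then 1.21 at d16 (0.799 to 1.77), 0.664 at d24 (0.434 to 0.974) and 0.693 in the adult (0.346 to 1.24). These values rest on 31, 27, 26 and 11 fragments, and the d12 to adult ratio of 2.01 had an interval of 0.982 to 4.43, so a change between these stages was not detectable at this depth. From d16 to d24 it was 1.83-fold lower (1.03 to 3.26). Cyp26b1 exceeded it 12.8-fold at d12 (8.98 to 19.0), 11.5-fold at d16 (7.84 to 17.6), 9.56-fold at d24 (6.47 to 14.7) and 6.78-fold in the adult (3.71 to 13.8). All 4 of these intervals overlapped. Cyp26a1 spans 37697738 to 37701536 of chromosome 19, on the plus strand.

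Set against the main breakdown gene, Aldh1a1 was 20.4 times Cyp26b1 at d12 (19.1 to 21.8), 22.8 times at d16 (21.2 to 24.5), 33.5 times at d24 (30.9 to 36.3) and 41.7 times in the adult (36.1 to 48.3). The summed level of the 3 ALDH1A genes over that of the 2 CYP26 genes was 21.1 at d12, then 23.9 at d16, 43.0 at d24 and 50.1 in the adult. The ALDH1A sum was thus lowered less than the CYP26 sum, and Aldh1a1 makes up most of the former. Enzyme activity and retinoic acid were not measured.

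Rara encodes the receptor RARα, known from Sertoli and germ cells. Its levels were 8.90 FPKM at d12 (7.91 to 9.94), then 7.54 at d16 (6.66 to 8.53), 6.62 at d24 (5.98 to 7.30) and 4.39 in the adult (3.61 to 5.32). The values ran down in small steps, and the d12 level was 2.02 times that of the adult (1.61 to 2.54). Of its 3330 stretches of 50 bases, 10 (0.300%) occur in other genes. Rara lies on chromosome 11 at 98927800 to 98974942, on the plus strand.

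Rarg encodes RARγ, the receptor known from differentiating spermatogonia. It stood at 3.44 FPKM at d12 (2.84 to 4.12), then 2.64 at d16 (2.13 to 3.25), 1.71 at d24 (1.39 to 2.07) and 0.948 in the adult (0.601 to 1.42), on 117, 90, 102 and 23 fragments. The d12 level was 3.63 times the adult one (2.30 to 5.94). Rara over Rarg was 2.59 at d12 (2.08 to 3.23), then 2.85 at d16 (2.23 to 3.67), 3.87 at d24 (3.11 to 4.87) and 4.63 in the adult (2.94 to 7.64). The d12 and adult intervals of this ratio overlapped. Rarg lies on chromosome 15 at 102234938 to 102257522, on the minus strand.

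In each library the order of the levels was compared between neighbours. At d12 it was Aldh1a1, Aldh1a2, Crabp1, Cyp26b1, Rara, Rdh10, Stra6, Rarg, Aldh1a3 and Cyp26a1, with overlapping intervals only for Rarg and Aldh1a3. In the adult it was Aldh1a1, Aldh1a2, Rdh10, Cyp26b1, Rara, Crabp1, Aldh1a3, Stra6, Rarg and Cyp26a1. There Rdh10, Cyp26b1, Rara and Crabp1 each overlapped with the next, and so did Aldh1a3, Stra6, Rarg and Cyp26a1. Crabp1 moved down from the third place to the sixth and Rdh10 up from the sixth to the third.

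A change of at least 2-fold on the scale of log2(FPKM + 0.1) was set against all genes whose mean over the 4 libraries was 1 FPKM or more. Of the 10 genes 9 had this mean, all but Cyp26a1 at 0.990, and of all genes 13901. The steps share libraries with each other, so their counts are not independent. From d12 to d16, none of the 9 was at least 2-fold higher (12.6% of all genes were) and 1, Stra6, was lower (3.67% of all genes). From d16 to d24, 1 was higher, Aldh1a2 (27.5%), and 2 were lower, Crabp1 and Cyp26b1 (8.45%). From d24 to adult, none was higher (11.4%) and none lower (2.2%). From d12 to adult, none was higher (35.7%) and 6 were lower, Stra6, Crabp1, Aldh1a3, Cyp26b1, Rara and Rarg (23.1%). The median log2 change of the 9 genes was -0.35, -0.58, -0.42 and -1.28 over these 4 comparisons, in this order, beside medians of 0, 0.13, -0.02 and 0.20 for all genes.

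**Figure D3:**
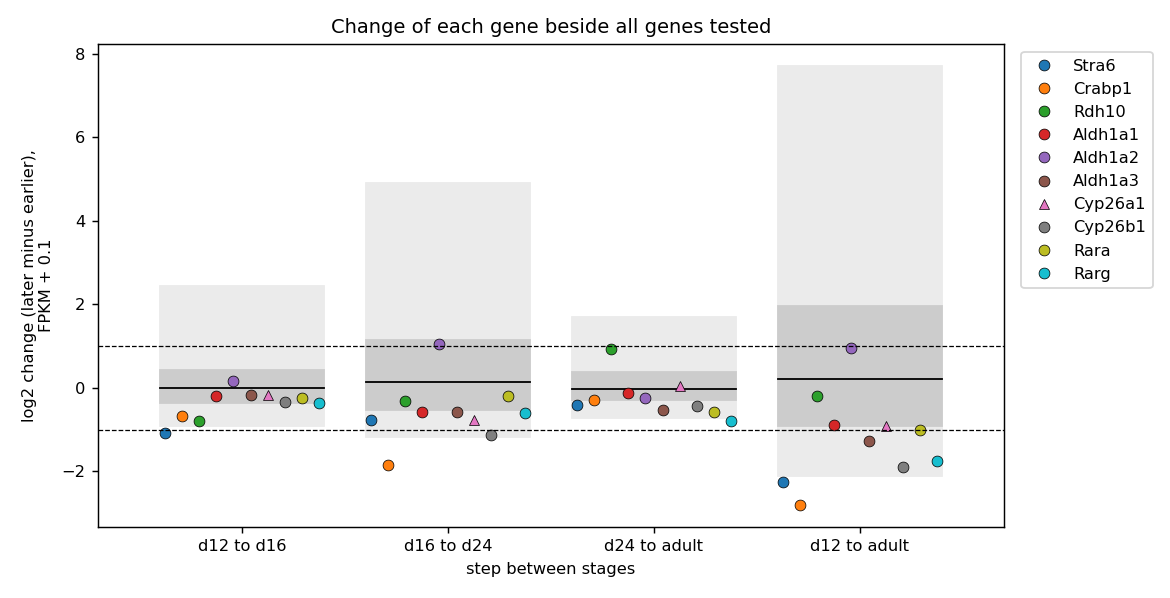
Change of each gene on the scale of log2(FPKM + 0.1), later minus earlier stage, for 4 comparisons of single libraries. Dark boxes run from the 25th to the 75th percentile of the genes averaging 1 FPKM or more, light boxes run from the 5th to the 95th percentile, black lines are medians, dashed lines mark 2-fold, and the triangle is Cyp26a1, whose mean is below 1 FPKM. Crabp1 at -2.80 and Stra6 at -2.25 lie below the light box from d12 to adult.

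The 2-fold line ran close to several values. From d12 to adult, Rara lay just inside it at -1.001 and Aldh1a1 just outside at -0.89, and on the rising side Aldh1a2 lay just outside at 0.95. From d16 to d24 Aldh1a2 lay just inside at 1.04, and from d24 to adult Rdh10 just outside at 0.92.

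Markers of the cell types known to hold these RNAs moved as well. The 6 Sertoli markers summed to 181.9 FPKM at d12, then 138.9 at d16, 87.3 at d24 and 65.7 in the adult, and 6 of 6 were lower in the adult than at d12, 4 of them at least 2-fold. Of the 6 markers of differentiating spermatogonia, 5 were at least 2-fold lower and Dmrtb1 was higher. The 6 markers of undifferentiated spermatogonia went the other way in sum, from 30.4 FPKM at d12 to 40.8 in the adult. Of the 5 of them with a mean of at least 1 FPKM, 1, Id4, was at least 2-fold higher. Another 2, Zbtb16 and Lin28a, were at least 2-fold lower. Of all genes, 23.1% were at least 2-fold lower and 35.7% higher between these stages. Of the 6 peritubular markers 4 were at least 2-fold lower, while Actg2 alone was higher, which brought their sum from 257.5 FPKM at d12 to 307.6 in the adult. The endothelial markers summed to 26.2 and 10.7 FPKM at these stages, those of macrophages to 32.7 and 28.9, and those of Leydig cells to 131.6 and 580.7. Of the undifferentiated spermatogonia markers, 1 was at 0 at d12 and 1 at d16. No marker of the other lists of this paragraph was at 0 in any library. The part of changing cell numbers in the results above was not tested.

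Rescaling showed which directions hold on every scale used. Divided by the geometric mean of the 6 Sertoli markers in the same library, the d12 to adult log2 change was -1.32 for Crabp1, -0.83 for Stra6, -0.42 for Cyp26b1 and -0.34 for Rarg. These 4 genes were lower in the adult under all of the scalings tried. Relative to the same markers, Aldh1a2 changed by 2.45, Rdh10 by 1.29, Aldh1a1 by 0.61, Rara by 0.48, Cyp26a1 by 0.45 and Aldh1a3 by 0.15, so that these 6 were higher in the adult per Sertoli marker. The median change of all genes, 0.20 as deposited, was 1.68 after this division, 0.55 per peritubular marker, -0.45 with the same upper quartile and -0.996 with the same FPKM sum. Under the peritubular scaling Rdh10 was higher in the adult, at 0.16, and the other 9 kept their direction.

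**Figure D4:**
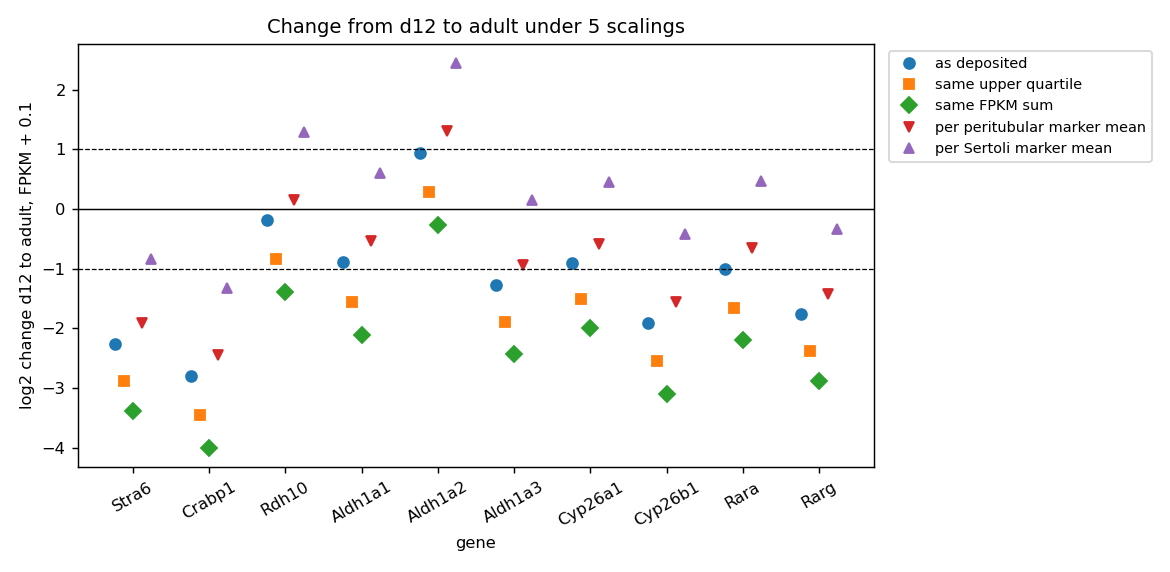
Change from d12 to adult of the 10 genes on the scale of log2(FPKM + 0.1), as deposited and after 4 rescalings of the libraries: to the same upper quartile, to the same FPKM sum, per geometric mean of the peritubular markers and per that of the Sertoli markers. Points are single values without error bars, since each stage has 1 library, and dashed lines mark 2-fold. Crabp1, Stra6, Cyp26b1 and Rarg lie below 0 on every scale, while Aldh1a2 lies above 0 on all scales but that of the same FPKM sum.

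Around the 10 genes, a list of 42 other genes of the retinoid pathway was followed, of which 41 were in the table and 27 had a mean of at least 1 FPKM. From d12 to adult, 7 of the 27 were at least 2-fold higher and 9 lower, beside the 35.7% and 23.1% of all genes given above, with a median log2 change of -0.44. From d12 to d16, 2 were higher (12.6% of all genes) and 2 lower (3.67%). From d16 to d24, 6 were higher (27.5%) and 5 lower (8.45%). From d24 to adult, 2 were higher (11.4%) and 3 lower (2.2%). Of 9 redox enzymes of retinol and retinal, 4 were at least 2-fold higher in the adult than at d12, beside 35.7% of all genes. These were Rdh11, Dhrs4, Adh4 and Bco1. In the same comparison 1, Rdh13, was at least 2-fold lower, beside 23.1% of all genes. The median log2 change of these 9 enzymes was -0.005, beside 0.20 for all genes.

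Rdh11, a microsomal retinal reductase, had 5.94 FPKM at d12, then 22.1 at d16, 99.1 at d24 and 93.1 in the adult, 15.7 times the d12 level (13.6 to 18.1). Bco1, which cleaves β-carotene into retinal, had 0.412, 0.344, 5.57 and 25.4 FPKM at these stages. Dhrs3, which reduces retinal back to retinol, had 6.39, 4.06, 3.51 and 4.56 FPKM, lowest at d24 on the deposited scale, as Rdh10 was. The d24 over d16 ratio was 0.863 for Dhrs3 (0.663 to 1.13) and 0.802 for Rdh10 (0.624 to 1.03), so neither interval was clear of 1. Rdh11 and Bco1 thus stood above Rdh10 in the adult, while at d12 Rdh11 had 5.94 FPKM and Rdh10 6.75.

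Among carriers and storage enzymes, Lrat, which esterifies retinol for storage, had 0.955, 3.42, 3.15 and 3.27 FPKM, an increase placed between d12 and d16. Crabp2, the paralog of Crabp1, reached at most 0.710 FPKM. Aldh8a1, a dehydrogenase that can use 9-cis retinal, was listed at 0 at d12 and had 0.285, 0.568 and 2.05 FPKM at the later stages.

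Of the remaining receptors, Rxra had 5.91 FPKM at d12, then 3.69 at d16, 3.42 at d24 and 4.81 in the adult, and Rxrb had 5.93, 4.11, 4.89 and 4.39. Neither was past 2-fold in any of the 4 comparisons. Rarb had 0.948 FPKM at d12, then 0.624 at d16, 0.252 at d24 and 0.178 in the adult, on 32, 21, 15 and 4 fragments. Rxrg stayed at or below 0.526 FPKM, and Cyp26c1, the third breakdown enzyme, was listed at 0 in all 4 libraries. Of the 6 coregulators, 1, Nrip1, was at least 2-fold lower in the adult than at d12, beside 23.1% of all genes.

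Of 6 genes known to respond to retinoic acid in germ cells, 5 were at least 2-fold lower in the adult than at d12. These were Stra8, Kit, Sall4, Sohlh1 and Sohlh2, beside 23.1% of all genes, and Rec8 was higher (35.7%). Stra8, which is needed for meiotic entry, had 86.4 FPKM at d12, then 49.2 at d16, 19.0 at d24 and 12.3 in the adult, 7.05-fold lower than at d12 (6.01 to 8.38). Sohlh1, a transcription factor of spermatogonia, had 10.4, 4.91, 2.09 and 0.610 FPKM. Of these genes 4, Kit, Stra8, Sohlh1 and Sohlh2, are also on the list of markers of differentiating spermatogonia.

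**Figure D5:**
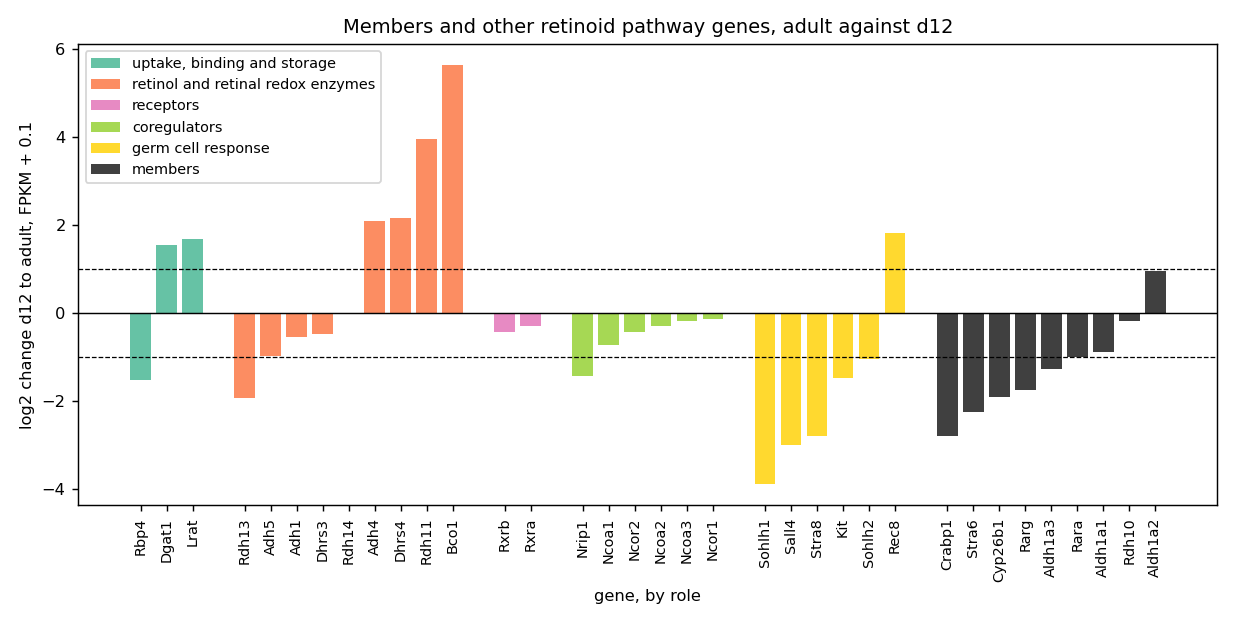
Change from d12 to adult on the scale of log2(FPKM + 0.1) for other retinoid pathway genes and the 9 members with a mean of at least 1 FPKM, 1 bar per gene, grouped by role, with dashed lines at 2-fold. Of the 27 listed genes with this mean, 1 is not shown. Each stage has 1 library and bars carry no error. Bco1 at 5.64 and Rdh11 at 3.95 are highest, and Sohlh1 at -3.89 is lowest.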

How the data were processed

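The authors prepared strand-specific total RNA libraries and sequenced them as read pairs. TopHat2 2.1.0, run on bowtie 1.1.2, placed each pair once on GRCm38/mm10. The deposited FPKM values of RefSeq genes come from Cuffdiff, part of Cufflinks 2.2.1, corrected by the authors for bias and for reads that map repeatedly, while effective length correction was off. Reads of near copies are therefore placed by the mapper and that correction. The scaling inside Cuffdiff is not given in the sources used here.

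From these values, fragments were recovered by multiplying by transcript length and dividing by the value of 1 fragment on 1 kb, over 14603 genes with 1 curated transcript. Fragment intervals are exact Poisson intervals, and those of ratios exact Clopper-Pearson intervals. Log2 changes used a pseudocount of 0.1 FPKM, which understates changes of low genes. No test was made, as each stage has 1 library. Python 3.11.15, numpy 2.4.6, pandas 2.3.3, scipy 1.17.1 and matplotlib 3.10.9 were used, and both the recovery of fragments and the counts past 2-fold were tested on simulated data. Annotation and promoters came from RefSeq, GRCm38.p6.

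The genes and lists were chosen with earlier results of these data known. Named are the 10 genes, pathway genes of their families and the 3 others with the largest change from d12 to adult, the 3 genes nearest in profile to each, and cell type markers, of which Adgre1 is in the table as Emr1. Meiosin and the member proteins were not analysed here. Of the pathway list, 1 gene is counted but not reported here.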

Additional observations from a re-analysis of the deposited data

How the results depend on the processing

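Leaving out a replicate and a paired analysis were not possible because each stage has 1 library. Of the 9 genes averaging 1 FPKM or more, 6 were at least 2-fold lower in the adult than at d12. This number stayed between 4 and 8 under the alternatives of fold, pseudocount, FPKM sum, upper quartile, filter and interval. Per Sertoli marker mean, Crabp1 alone was at least 2-fold lower, with a log2 change of -1.32. On that scale Aldh1a2 at 2.45 and Rdh10 at 1.29 were at least 2-fold higher. Other counts of members moved. At 1.5-fold, 3 were lower from d12 to d16, 4 lower from d16 to d24, 1 higher and 1 lower from d24 to adult, and 1 higher from d12 to adult. At 3-fold, 0 were lower from d12 to d16, 0 higher and 1 lower from d16 to d24. A pseudocount of 1 FPKM left 0 lower from d12 to d16. With the same FPKM sum, 0 were higher and 6 lower from d16 to d24, and 2 were lower from d24 to adult, and with the same upper quartile 0 were higher from d16 to d24. Per Sertoli marker mean, the log2 changes of Aldh1a3 and Rara from d12 to adult reversed to 0.15 and 0.48. For the other pathway genes, the same FPKM sum gave 3 higher and 12 lower from d16 to d24, 1 higher from d24 to adult, and 2 higher and 20 lower from d12 to adult. Without the filter on low values, 4 were higher and 6 lower from d12 to d16, 4 higher and 6 lower from d24 to adult, and 11 higher from d12 to adult. Depth limits what can be said of Cyp26a1, Rarb, Crabp2, Rxrg and Cyp26c1, since 3 fragments on 1 kb amount to 0.137 FPKM at d24 and 0.337 in the adult. On the longer Cyp26a1 transcript, 3 fragments amount to 0.0767 FPKM at d24 and 0.189 in the adult, below its levels.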

Other observations

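For each of the 9 genes averaging 1 FPKM or more, the genes of nearest profile were sought among 13901 genes, by the root mean square difference of centred log2(FPKM + 0.1) over the 4 libraries. With 4 points per profile, close neighbours are common, and nearness here says nothing of shared control. Nearest to Cyp26b1 was Tpm1, an actin-binding tropomyosin, at 0.00869, followed by Ddah2 and Rgs11. Tpm1 had 155.8 FPKM at d12, then 123.1 at d16, 56.0 at d24 and 42.2 in the adult. Nearest to Stra6 was Serpinf1, a secreted serpin, at 0.0214, with 21.2, 10.1, 6.00 and 4.28 FPKM. Rdh10 had its nearest neighbour Eif4e3, a cap-binding protein, at 0.0774, the farthest among the nearest neighbours of these 9 genes, with 3.53, 1.81, 1.65 and 3.26 FPKM. Nearest to Aldh1a2 was Man1b1, a mannosidase of the secretory pathway, at 0.0132, with 11.9, 13.3, 27.5 and 23.5 FPKM. For the other 5 the nearest were Gm16386 for Crabp1, Sfr1 for Aldh1a1, Ict1 for Aldh1a3, Mob2 for Rara and C1qtnf1 for Rarg.

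Set against the median profiles of the marker lists instead, Rarg was nearest to the Sertoli markers, at a difference of 0.0765. Cyp26b1 was nearest to the markers of differentiating spermatogonia at 0.126, as were Stra6 at 0.183 and Crabp1 at 0.402. Aldh1a1 and Aldh1a3 were nearest to the peritubular markers, at 0.149 and 0.148. Aldh1a2 was nearest to the Leydig markers, at 0.588. Rara and Rdh10 were nearest to the macrophage markers, at 0.241 and 0.475. These distances describe time courses of bulk testis and assign no gene to a cell type.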
